A study of Mus musculus with 8 samples.

Results

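The 40 genes described here are the amino acid and ER stress response genes of the mouse kidney: transcription factors and sensors of the response, ATF4 targets, enzymes of serine, asparagine, and proline synthesis, tRNA synthetases, and ER chaperones with their degradation partners. They were taken by gene name from the 55367 genes of the deposited count table, in which all 40 are listed, and 39 of them had enough counts to be tested. Whole kidneys of 4 *c-Maf* ΔTAM mice (genotype Maf conditional KO) were compared with those of 4 *c-Maf* fl/fl mice (Maf flox/flox) by RNA-Seq, with 1 library per mouse. All mice were C57BL/6J at 8 weeks of age, both groups carried floxed *c-Maf* alleles and both were given tamoxifen (TAM), and the ΔTAM mice alone carried a Cre recombinase that TAM switches on. This Cre is driven by the ubiquitous CAG promoter, so the deletion was not limited to kidney cells or to any cell type of the kidney. The question of the comparison was which transcripts differ after adult loss of c-Maf, a leucine zipper transcription factor of the proximal tubule.

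Cells that lack amino acids, or whose endoplasmic reticulum (ER) is filled with unfolded protein, activate kinases such as GCN2 and PERK, which phosphorylate the translation factor eIF2α. General translation then slows while the transcription factor ATF4 is translated more, and ATF4 raises genes of amino acid synthesis, amino acid transport, and tRNA charging. The ER has 2 further sensors, IRE1, which splices the mRNA of XBP1, and ATF6, and both raise chaperones that fold proteins in the ER. The proximal tubule makes and reabsorbs serine and carries a heavy load of membrane protein through its ER, and these genes are read there as signs of stress or of nutrient state.

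The libraries held 16649129 to 22990257 counts per mouse, and values below are CPM, counts relative to library sizes that were scaled by TMM. The targeted gene, *Maf*, was at 20.8 ± 13.1 CPM (SD, n = 4) in ΔTAM mice and 345 ± 30.8 CPM (SD, n = 4) in fl/fl mice, a log2 fold change of -4.05 with an adjusted *P* of 0.0115 (edgeR's quasi-likelihood test, Benjamini-Hochberg adjustment over all tested genes, as for every adjusted *P* here). All 4 ΔTAM mice were below all 4 fl/fl mice, and the fall stayed at -3.87 in the mice with high *Xist* and -3.79 without ΔTAM mouse 1 and fl/fl mouse 4, although these smaller fits did not call it (adjusted *P* = 0.108 and 0.0556). A gene was called when this adjusted *P* was under 0.05. The groups were not uniform: *Xist*, which is transcribed from an inactive X chromosome, had 2 to 22 counts in ΔTAM mouse 1 and fl/fl mice 3 and 4, against 17618 to 22387 in the other 5 mice, and the labels do not give the sexes. These 3 mice also held 4102 to 4996 CPM in 8 markers of the S3 segment of the proximal tubule, against 998 to 1301 CPM in the others, and ΔTAM mouse 1 had the largest mitochondrial share of counts (32.3%, with 17.1% to 25.5% in the other mice). The 9 markers of the S1 and S2 segments were all detected, as the tissue label of whole kidney would have it, although the extraction protocol in the labels names liver. They summed to 9100 to 13027 CPM in ΔTAM mice and 15729 to 17795 CPM in fl/fl mice, with 4 of the 9 called lower. In whole kidney, fewer cells of a type and less RNA per cell cannot be told apart.

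Among the 39 tested genes, 1 was called lower in ΔTAM mice and 0 were called higher. The called gene was *Psat1*, the aminotransferase of serine synthesis. This is 2.56% of the tested members, beside 2.16% of the 20149 genes tested in all (1.58% lower and 0.586% higher), so the share called was near the background. At an unadjusted *P* under 0.05 there were 10 members, or 25.6%, against 14% of all genes: *Psat1*, *Phgdh*, *Psph*, and *Trib3* with lower values and *Chac1*, *Mthfd2*, *Asns*, *Pycr1*, *Nupr1*, and *Gars* with higher values in ΔTAM mice. The fitted log2 fold change was below 0 in 23 members and above 0 in 16, and its median was -0.07 beside 0.00 over all tested genes, a gap below the spread of the members' median between mice of one genotype (SD 0.0921 on the log2 scale). The 4 mice of one genotype all lay above the 4 of the other in 6 members (15.4%, against 9.79% of all genes), of which *Psat1*, *Phgdh*, *Psph*, and *Trib3* were lower in ΔTAM mice (10.3%, background 5.62%) and *Asns* and *Gars* were higher (5.13%, background 4.17%).

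The number of members called depended on the test, as did the background. DESeq2 called 2 members (*Psat1* and *Chac1*) and 4.40% of all genes, and edgeR's exact test called *Psat1* alone and 1.90% of genes. Leaving the mitochondrial and ribosomal RNA genes out of the fit gave *Psat1* alone and 2.18% of genes. A filter of at least 1 count in any mouse gave the same 2 members as DESeq2 and 1.59% of genes. With the *Xist* level as a covariate, 3 members (*Psat1*, *Psph*, and *Mthfd2*) and 6.90% of genes were called, and in the mice with high *Xist* 1 member (*Chac1*) and 3.75% of genes. With the replicate number as a block 0 members and 0.640% of genes were called. Of the 39 members, *Psat1* was thus the one called most often, and no member was called under every setting.

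**Figure D1:**
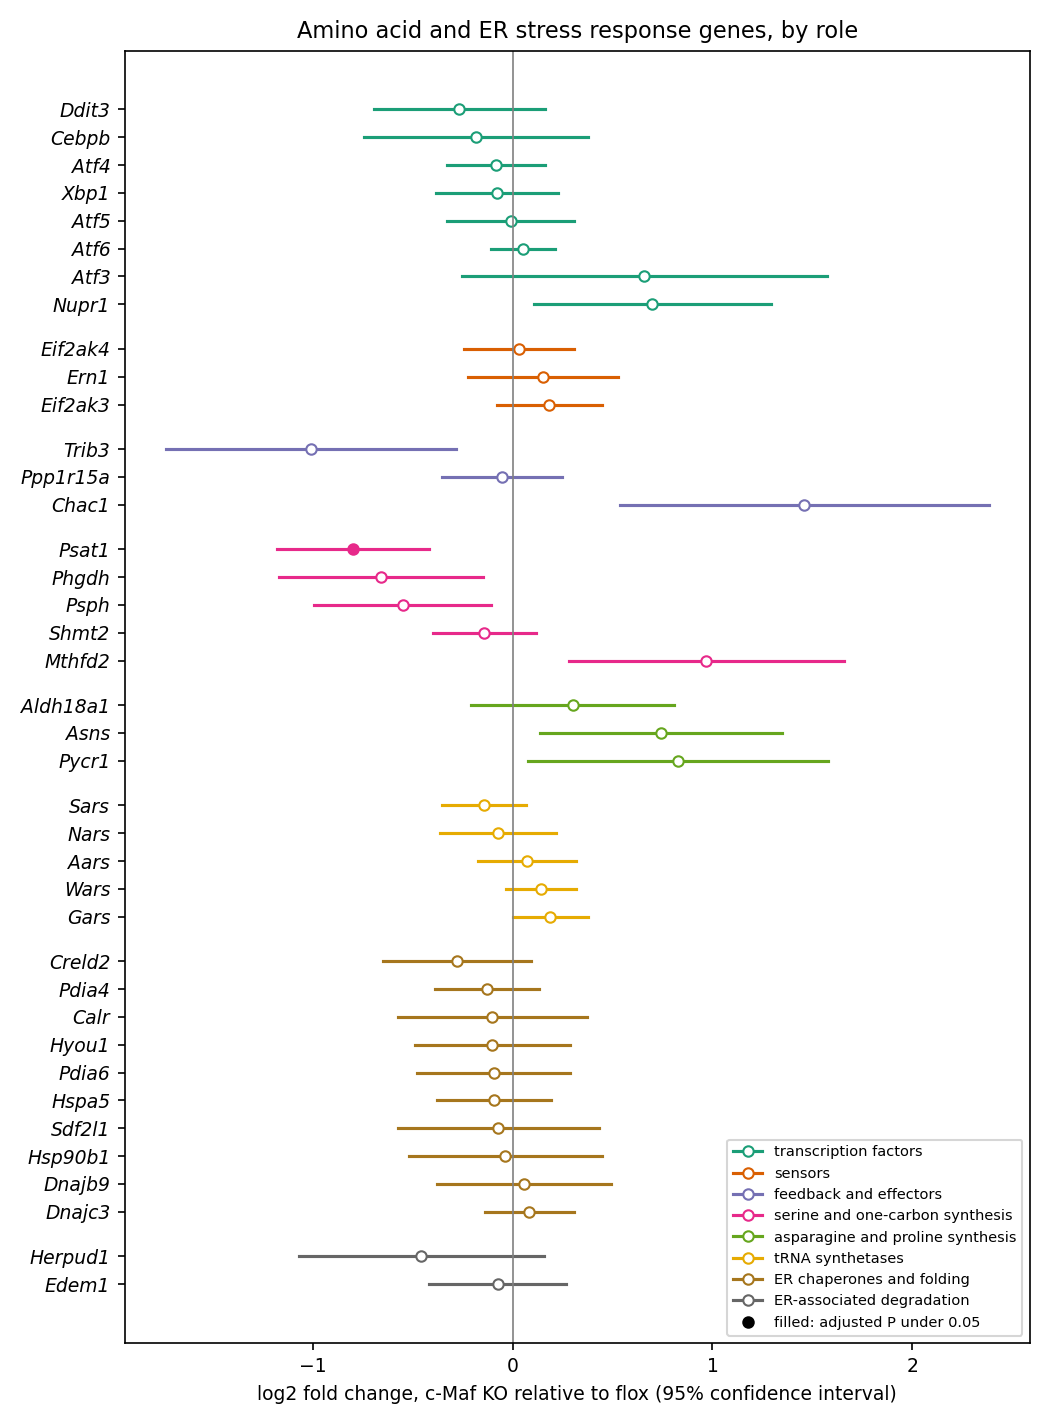
Log2 fold change of each of the 39 tested genes, ΔTAM relative to fl/fl mice, with its 95% confidence interval (lines); genes are grouped by role and a filled point marks an adjusted *P* under 0.05. *Psat1* is the single filled point, the chaperones lie between -0.28 and 0.08, and the widest departures are *Trib3* at -1.01 and *Chac1* at 1.46.

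Serine is made from the glycolytic intermediate phosphoglycerate in 3 steps, by a dehydrogenase (*Phgdh*), an aminotransferase (*Psat1*), and a phosphatase (*Psph*). Each of these 3 genes had lower values in every ΔTAM mouse than in any fl/fl mouse (5.62% of all genes did), 1 of them was called, and for *Phgdh* the order does not hold once a gene that shares its sequence is added, as given below. Their 250 bases before the RefSeq start sites, with both starts of *Psat1*, are shown because the 3 enzymes make up the pathway that holds the called member. The sequences are RefSeq promoter sequence of GRCm38.p6, written 5′ to 3′ on the strand of the gene, and the capitals in *Phgdh* mark TGCTGAC on the other strand, the core of the Maf recognition element (MARE).
*Psat1*, chr19:15924623-15924872, minus strand: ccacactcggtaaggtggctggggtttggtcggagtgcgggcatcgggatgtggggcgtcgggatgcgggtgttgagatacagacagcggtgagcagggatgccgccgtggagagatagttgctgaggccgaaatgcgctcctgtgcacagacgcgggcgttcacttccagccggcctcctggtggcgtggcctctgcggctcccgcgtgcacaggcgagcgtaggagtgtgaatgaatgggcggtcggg
*Psat1*, chr19:15925060-15925309, minus strand: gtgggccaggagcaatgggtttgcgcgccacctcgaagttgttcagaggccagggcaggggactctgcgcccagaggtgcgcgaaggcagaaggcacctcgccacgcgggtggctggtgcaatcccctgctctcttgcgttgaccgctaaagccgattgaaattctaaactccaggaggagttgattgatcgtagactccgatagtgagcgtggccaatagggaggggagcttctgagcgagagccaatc
*Phgdh*, chr3:98339970-98340219, minus strand: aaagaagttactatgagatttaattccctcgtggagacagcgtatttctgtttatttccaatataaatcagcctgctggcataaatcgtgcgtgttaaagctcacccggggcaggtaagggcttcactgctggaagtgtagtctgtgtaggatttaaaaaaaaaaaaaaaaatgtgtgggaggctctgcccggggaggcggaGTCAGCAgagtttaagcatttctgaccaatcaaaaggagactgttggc
*Psph*, chr5:129787254-129787503, minus strand: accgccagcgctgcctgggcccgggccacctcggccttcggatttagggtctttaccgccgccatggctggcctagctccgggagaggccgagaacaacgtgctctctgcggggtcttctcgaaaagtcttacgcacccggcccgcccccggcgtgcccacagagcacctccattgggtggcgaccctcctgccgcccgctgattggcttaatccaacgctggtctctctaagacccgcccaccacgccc
This core was searched on both strands and occurred in 3.81% of 32851 windows of the same length over all genes, and in the windows of 4 members, *Phgdh*, *Asns*, *Trib3*, and *Ppp1r15a*. It was in neither window of *Psat1*, nor in that of *Psph*. A match of these letters is a description of the window, and binding was not measured here.

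*Psat1* (chromosome 19, 15904678 to 15947337, minus strand, GRCm38) was at 11.1, 13.6, 10.8, and 16.4 CPM in ΔTAM mice 1 to 4. In fl/fl mice 1 to 4 it was at 23.5, 17.9, 28.8, and 19.9 CPM. The highest ΔTAM mouse, mouse 4, thus lay just under the lowest fl/fl mouse, mouse 2. Its log2 fold change was -0.80 at a standard error of 0.173, with an interval of -1.18 to -0.42 at 95% confidence and an adjusted *P* of 0.0378, from 13 ± 2.60 CPM in ΔTAM against 22.5 ± 4.77 CPM in fl/fl mice (SD, n = 4 each). The call lay near the threshold: it was lost without ΔTAM mouse 1, 2, or 3 or fl/fl mouse 1, 3, or 4, with adjusted *P* values of 0.0594 to 0.138, while the log2 fold change stayed between -0.93 and -0.65 in all 8 fits. When the 5 mice with high *Xist* were fitted alone, the difference was -0.61 and its adjusted *P* was 0.0906.

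*Phgdh* (chromosome 3, 98313170 to 98339990, minus strand), the enzyme of the entry step, was expressed at a low level, with 30, 28, 35, and 43 counts in ΔTAM mice 1 to 4 and 60, 52, 53, and 59 counts in fl/fl mice 1 to 4. The genotypes did not overlap (1.81 ± 0.410 against 2.86 ± 0.469 CPM, SD, n = 4 each), and the log2 fold change of -0.66 (standard error 0.234) had an adjusted *P* of 0.220. Its value is uncertain, because 54.1% of its 36-base sequences, the read length of this study, also occur in *Gm7901*. That gene held more counts than *Phgdh* itself in 7 of the 8 mice and as many in fl/fl mouse 4, at 38, 52, 62, and 115 in ΔTAM and 182, 117, 109, and 59 in fl/fl mice. Summed over both genes the level was 3.46, 4.11, 5.38, and 8.55 CPM in ΔTAM and 11.9, 7.63, 8.22, and 6.92 CPM in fl/fl mice, and there the genotypes overlapped, since ΔTAM mouse 4 lay above 3 of the fl/fl mice.

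*Psph* (chromosome 5, 129765558 to 129787449, minus strand), the phosphatase of the final step, was at 3.46, 6.32, 7.26, and 6.01 CPM in ΔTAM mice 1 to 4. In fl/fl mice it was at 8.09, 9.12, 8.12, and 8.39 CPM. The fl/fl mice were close together and ΔTAM mouse 1, with low *Xist*, was the lowest of the ΔTAM mice. The difference came to -0.55 on the log2 scale (standard error 0.202, adjusted *P* = 0.238), and 10.4% of its exonic bases overlap *Cct6a*. With the *Xist* level as a covariate the adjusted *P* was 0.0301 at a log2 fold change of -0.66, but the difference was -0.40 (adjusted *P* = 0.314) in the mice with high *Xist* and -0.37 (0.277) without ΔTAM mouse 1. The sum of the 3 genes, without *Gm7901*, was 16.1 to 24.7 CPM in ΔTAM mice and 29.3 to 39.6 CPM in fl/fl mice. *Psat1* made up most of this sum in each mouse. Its lack of overlap follows from that of each gene and is no further evidence.

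The other 2 genes of this group use serine for one-carbon units, and their values were not lower in all ΔTAM mice. *Shmt2*, the mitochondrial enzyme that passes a carbon of serine to folate, was at 107 to 130 CPM in ΔTAM and 107 to 153 CPM in fl/fl mice, with wide overlap. *Mthfd2*, the folate dehydrogenase of the next step, was at 3.97, 7.34, 9.26, and 5.14 CPM in ΔTAM mice and 5.00, 3.30, 2.64, and 2.11 CPM in fl/fl mice. The highest fl/fl mouse, mouse 1, lay above ΔTAM mouse 1 and just under ΔTAM mouse 4. *Mthfd2* differed by 0.97 on the log2 scale (standard error 0.312, adjusted *P* = 0.175), of opposite sign to the fitted values of the 3 synthesis genes, and it was past the threshold, at 0.0301, with *Xist* as a covariate but not in the mice with high *Xist* (0.80, adjusted *P* = 0.143).

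**Figure D2:**
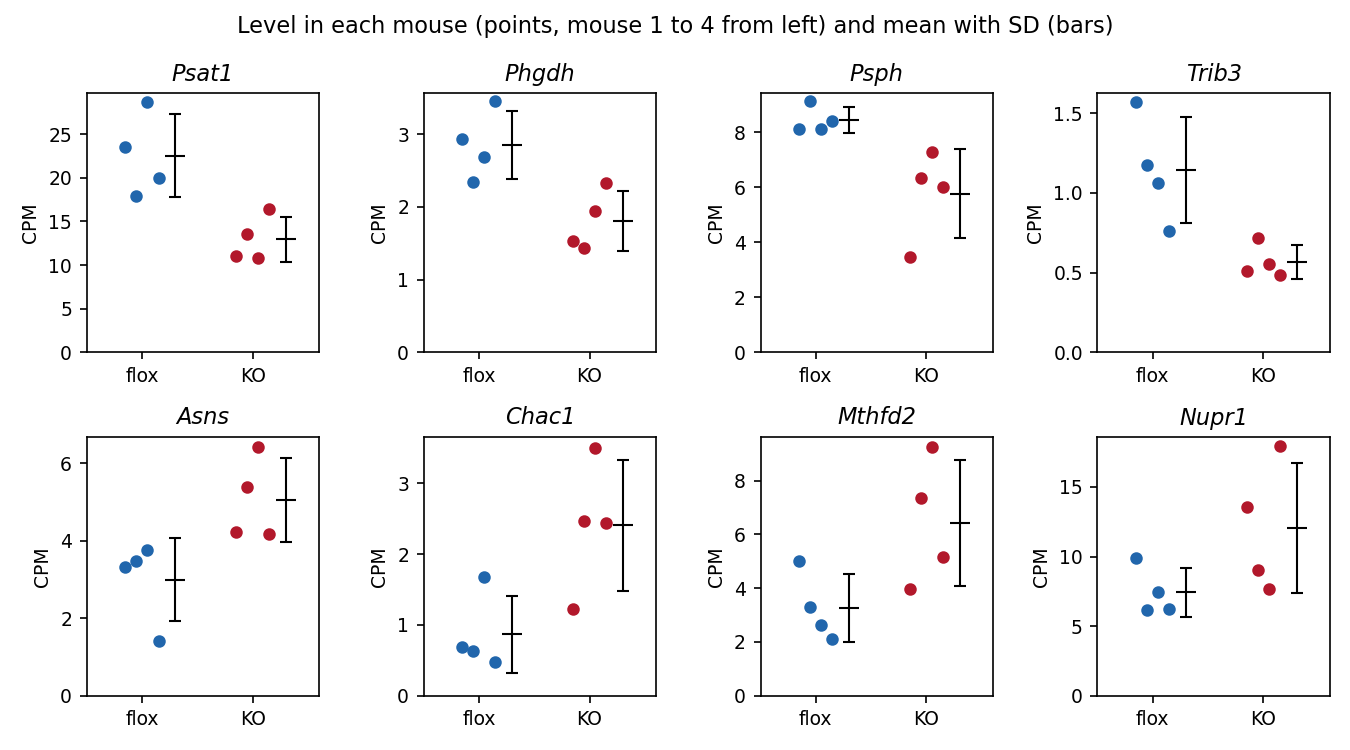
CPM of 8 members in each mouse (points, mouse 1 to 4 from left to right, axes from 0) with the mean and SD of the 4 mice (bars) for fl/fl and ΔTAM mice. *Psat1*, *Phgdh*, *Psph*, and *Trib3* have every ΔTAM mouse below every fl/fl mouse, *Asns* has every ΔTAM mouse above, and *Chac1*, *Mthfd2*, and *Nupr1* overlap.

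Of the 3 genes of asparagine and proline synthesis, 0 were called and all had fitted values above 0, from 0.30 to 0.83 on the log2 scale. *Asns* (chromosome 6, 7675169 to 7693254, minus strand) makes asparagine and is a standard readout of ATF4. It was at 4.22, 5.39, 6.43, and 4.17 CPM in ΔTAM mice and 3.34, 3.48, 3.75, and 1.41 CPM in fl/fl mice. No fl/fl mouse reached a ΔTAM mouse, and fl/fl mouse 4 was the lowest of its group. *Asns* thus differed by 0.75 on the log2 scale (standard error 0.277, adjusted *P* = 0.244). *Pycr1*, the last enzyme of proline synthesis, had 16 to 32 counts in ΔTAM and 11 to 23 in fl/fl mice, and *Aldh18a1*, the first enzyme from glutamate, overlapped at 4.02 to 8.04 against 3.93 to 6.18 CPM. The window before the start of *Asns* is shown as that of the amino acid synthesis gene with higher values in all ΔTAM mice, with capitals on the MARE core (GTCAGCA as read here) and, 23 bases before the start, on an ATF4 element described next.
*Asns*, chr6:7693210-7693459, minus strand: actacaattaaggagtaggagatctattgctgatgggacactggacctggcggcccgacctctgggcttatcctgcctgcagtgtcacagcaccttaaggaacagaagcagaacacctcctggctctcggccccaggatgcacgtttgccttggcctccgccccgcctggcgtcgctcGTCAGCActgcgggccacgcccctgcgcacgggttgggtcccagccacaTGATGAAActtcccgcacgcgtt

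The element through which ATF4 acts on amino acid genes pairs a C/EBP and an ATF sequence, and it was searched by its core TGATGNAA on both strands (CARE). These letters occurred in 3.45% of the 32851 windows and in the windows of 9 of the 36 members that RefSeq windows could be matched to (39 windows), and the matches are listed to show which members hold this core near the start. The fixed letters are in capitals, each match is written on the strand named, and the coordinates are of GRCm38.p6.
*Asns*, chr6:7693225-7693232, minus strand: TGATGaAA
*Chac1*, chr2:119351049-119351056, minus strand: TGATGcAA
*Nupr1*, chr7:126625573-126625580, plus strand: TGATGcAA
*Pycr1*, chr11:120643844-120643851, minus strand: TGATGcAA
*Gars*, chr6:55037971-55037978, minus strand: TGATGaAA
*Aars*, chr8:111033730-111033737, minus strand: TGATGcAA
*Atf3*, chr1:191183436-191183443, plus strand: TGATGcAA
*Herpud1*, chr8:94386317-94386324, minus strand: TGATGcAA
*Fgf21*, chr7:45615622-45615629, plus strand: TGATGcAA
These 9 genes differed among themselves in the counts. *Asns*, *Chac1*, *Nupr1*, *Pycr1*, and *Gars* were among the 10 members at an unadjusted *P* under 0.05, with higher values in ΔTAM mice, *Atf3*, *Herpud1*, and *Aars* were not, and *Fgf21* was at 0. *Aars*, the alanine tRNA synthetase, was at 80.1 to 107 CPM in ΔTAM and 80.1 to 103 CPM in fl/fl mice.

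Of 8 transcription factors, 0 were called and all 8 overlapped between genotypes, with adjusted *P* values from 0.271 to 0.986. *Atf4*, whose protein level is set mainly by translation, was at 52.3 to 68.4 CPM in ΔTAM and 53.5 to 71.5 CPM in fl/fl mice. *Xbp1* (83.1 to 107 against 85.0 to 133 CPM) and *Atf6* (86.4 to 92.9 against 81.7 to 91.1 CPM) were at like levels, and the counts do not separate spliced from unspliced *Xbp1*. *Ddit3*, which encodes the death-associated factor CHOP, was at 7.14 to 12.6 against 8.85 to 12.9 CPM, and *Cebpb* (14.3 to 32.5 against 19.5 to 26.8 CPM, with 20.7% of its exonic bases shared with *Tmem189*) and *Atf5* (7.07 to 10.6 against 8.68 to 9.79 CPM) overlapped widely. *Atf3* was near 1 to 3 CPM in most mice, with 27 to 53 counts in ΔTAM and 8 to 45 in fl/fl mice. The smallest *P* of these 8 belonged to *Nupr1*, a small stress-induced chromatin protein, at 13.5, 9.04, 7.65, and 18.0 CPM in ΔTAM and 9.86, 6.14, 7.46, and 6.22 CPM in fl/fl mice. ΔTAM mice 1 and 4 were above every fl/fl mouse and mice 2 and 3 were not, for a difference of 0.70 on the log2 scale (standard error 0.268, adjusted *P* = 0.271), which was 0.44 without ΔTAM mouse 4.

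The genes of the 3 kinases that start the response were called in 0 cases, with fitted values of 0.03 to 0.18. *Eif2ak3*, the gene of PERK, was at 52.4, 51.7, 50.7, and 60.2 CPM in ΔTAM and 44.9, 52.0, 55.4, and 36.9 CPM in fl/fl mice. The ΔTAM mice lay within the fl/fl range except mouse 4, the fitted log2 difference came to 0.18 (standard error 0.121, adjusted *P* = 0.550) and to 0.086 without fl/fl mouse 4, and 8.05% of its exonic bases overlap *Gm43292*. *Eif2ak4* (GCN2) was at 22.0 to 33.1 against 26.0 to 30.0 CPM. *Ern1* (IRE1) was at 45.4 to 51.2 against 27.4 to 51.7 CPM, with fl/fl mouse 1 well below the other mice.

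The members that feed back on the response or carry out its late effects had fitted values on both sides of 0, and 0 of the 3 tested were called. *Trib3* (chromosome 2, 152337422 to 152344032, minus strand), a pseudokinase induced by CHOP and ATF4, had 10, 14, 10, and 9 counts in ΔTAM mice 1 to 4 and 32, 26, 21, and 13 counts in fl/fl mice. After scaling, the genotypes did not overlap (0.567 ± 0.105 against 1.14 ± 0.334 CPM, SD, n = 4 each), although ΔTAM mouse 2 and fl/fl mouse 4 were close, and the log2 fold change of -1.01 (standard error 0.333) had an adjusted *P* of 0.183. *Chac1* (chromosome 2, 119351229 to 119354381, plus strand), which degrades glutathione and is a textbook late ATF4 target, had 24, 48, 63, and 45 counts in ΔTAM and 14, 14, 33, and 8 counts in fl/fl mice. In CPM, ΔTAM mice 2, 3, and 4 were above all fl/fl mice, and fl/fl mouse 3 was above ΔTAM mouse 1.

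*Chac1* had the largest fitted difference of the 39 genes, 1.46 on the log2 scale (0.54 to 2.38 at 95% confidence, standard error 0.422), with an adjusted *P* of 0.117. It was past the threshold in DESeq2 (adjusted *P* = 0.0274), without fl/fl mouse 3 (0.0360, at 1.99), and within the mice with high *Xist* (0.00365, at 2.07), so whether it was called turned on the test and on the mice used. *Ppp1r15a*, the gene of the phosphatase subunit GADD34 that reverses eIF2α phosphorylation, overlapped at 11.7 to 17.8 against 15.3 to 16.7 CPM. *Fgf21*, a hormone that ATF4 induces in liver, had 0 counts in all 8 mice, which allows up to 3 counts per library and is a limit on counting error alone. Thus *Trib3* and *Chac1*, both ATF4 targets, had fitted values of opposite sign.

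Of the 5 tRNA synthetases, which attach amino acids to their tRNAs, 0 were called, and their fitted values were from -0.14 to 0.19 with standard errors of 0.0804 to 0.132, beside a median standard error of 0.172 over the tested members. *Gars* (chromosome 6, 55038007 to 55079500, plus strand), the glycine enzyme, was at 57.9, 60.3, 69.5, and 58.3 CPM in ΔTAM and 54.5, 49.9, 57.8, and 53.6 CPM in fl/fl mice. The genotypes did not overlap, but the lowest ΔTAM mouse and the highest fl/fl mouse were nearly equal, and the difference on the log2 scale was 0.19 (standard error 0.0862, adjusted *P* = 0.355) and 0.12 without ΔTAM mouse 3. *Sars* for serine (81.1 to 90.5 against 84.9 to 109.5 CPM), *Nars* for asparagine (60.4 to 87.6 against 67.4 to 94.1 CPM), and *Wars* for tryptophan (34.1 to 38.2 against 31.7 to 34.8 CPM) overlapped. In *Aars*, 15.1% of the exonic bases overlap *Exosc6*, and reads there were left uncounted.

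Several ER chaperones were among the most abundant members. Per kb of exon length, the highest levels in fl/fl mice were those of *Calr* (calreticulin, a lectin chaperone) at 217.5, *Herpud1* at 148, and *Hspa5* (BiP, the main HSP70 of the ER) at 129 CPM per kb. The ATF6 and XBP1 binding sequence of these genes, the ER stress response element (ERSE), was searched on both strands as CCAAT and CCACG with 9 bases between them. It occurred in 0.113% of the 32851 windows and in those of 6 members, and its short form ERSE-II (ATTGG and CCACG with 1 base between them) occurred in 0.0304% of the windows and in that of *Herpud1*. The matches are listed because they show which members share these elements, with the fixed letters in capitals and each written on the strand named. The windows of the chaperone genes *Pdia4*, *Dnajb9*, and *Sdf2l1* held neither element, and *Hyou1* had no window.
*Hspa5*, chr2:34772025-34772043, plus strand: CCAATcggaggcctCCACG
*Calr*, chr8:84847075-84847093, plus strand: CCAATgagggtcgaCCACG
*Hsp90b1*, chr10:86705638-86705656, minus strand: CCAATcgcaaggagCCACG
*Hsp90b1*, chr10:86705533-86705551, plus strand: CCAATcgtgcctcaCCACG
*Pdia6*, chr12:17266491-17266509, plus strand: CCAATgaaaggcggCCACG
*Dnajc3*, chr14:118937827-118937845, plus strand: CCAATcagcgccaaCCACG
*Creld2*, chr15:88819520-88819538, minus strand: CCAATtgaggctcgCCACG
*Herpud1*, chr8:94386377-94386387, plus strand: ATTGGgCCACG
*Hspa5*, for which the whole window is given as the textbook target of this element, carries it 65 bases before the start.
*Hspa5*, chr2:34771840-34772089, plus strand: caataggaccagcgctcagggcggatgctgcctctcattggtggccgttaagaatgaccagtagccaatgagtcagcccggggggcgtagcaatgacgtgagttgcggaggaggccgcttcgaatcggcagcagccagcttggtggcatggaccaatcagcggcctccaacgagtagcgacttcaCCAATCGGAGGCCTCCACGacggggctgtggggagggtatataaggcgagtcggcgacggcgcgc

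Of the 10 chaperone and folding genes, 0 were called, 0 had an unadjusted *P* under 0.05, and all 10 overlapped between genotypes. *Calr* was at 698.5, 595.3, 610.6, and 430.1 CPM in ΔTAM mice 1 to 4 and 446.9, 501.4, 802.9, and 754.5 CPM in fl/fl mice 1 to 4. Fl/fl mice 3 and 4 were highest, and the fitted log2 difference was -0.10 (standard error 0.211, adjusted *P* = 0.879). Its sign was positive, at 0.05, under quantile normalization and also in the mice with high *Xist*, at 0.20. *Hspa5* (chromosome 2, 34771970 to 34777547, plus strand) was at 548.6, 471.1, 552.3, and 472.9 CPM in ΔTAM and 414.7, 592.5, 639.8, and 532.5 CPM in fl/fl mice. The ΔTAM mice lay inside the fl/fl range, and the log2 fold change was -0.09 with a 95% confidence interval of -0.38 to 0.19 (adjusted *P* = 0.814). For *Hspa5* it was 0.07 under quantile normalization, -0.20 without fl/fl mouse 1, and -0.0041 without fl/fl mouse 3. *Creld2*, a folding factor secreted under ER stress, had the smallest *P* of the 10, at 21.9, 19.7, 23.4, and 32.0 CPM in ΔTAM and 22.5, 35.1, 31.4, and 28.5 CPM in fl/fl mice. ΔTAM mice 1 and 2 lay below all fl/fl mice while mouse 4 did not, and on the log2 scale the difference was -0.28 (standard error 0.168, adjusted *P* = 0.506), which was -0.44 without ΔTAM mouse 4 and -0.18 without fl/fl mouse 2.

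The other 7 genes differed between genotypes by less than the larger of the SDs of the groups. *Hsp90b1* (the HSP90 of the ER, with 15.7% of its exonic bases shared with *1810014B01Rik*) was at 371 ± 72.9 against 381 ± 107 CPM, and *Hyou1* (a large HSP70 relative) at 203 ± 24.4 against 218 ± 57.4 CPM (SD, n = 4 each). The disulfide isomerases *Pdia4* (136 ± 14.8 against 148 ± 22.0 CPM) and *Pdia6* (111 ± 11.8 against 118 ± 31.1 CPM) and the BiP cochaperones *Dnajc3* (192 to 207 against 159 to 223 CPM), *Dnajb9* (25.6 ± 6.5 against 24.6 ± 5.27 CPM), and *Sdf2l1* (11.4 ± 1.85 against 11.9 ± 3.86 CPM) were alike in this. For 8 of these 10 genes the fitted value was below 0, but none lay past -0.28, and at 4 mice a group the 95% confidence intervals still hold changes as low as -0.65 for *Creld2* and as high as 0.49 for *Dnajb9* on the log2 scale.

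The chaperones varied widely between mice of one genotype. Their summed level was 2457, 2132, 2284, and 1836 CPM in ΔTAM mice 1 to 4 and 1679, 2132, 2817, and 2538 CPM in fl/fl mice 1 to 4. The highest 2 mice and the lowest mouse of all 8 were thus fl/fl mice, and the highest ΔTAM mouse was the one with low *Xist*. In *Calr*, *Hsp90b1*, *Pdia4*, *Pdia6*, and *Dnajc3*, the mice with low *Xist* lay above the mice with high *Xist* within both genotypes. In fl/fl mice alone, 13 of the 39 members had this order, beside 25.4% of all genes. Over all 39 members this held for 9 (23.1%, against 13.6% of all tested genes), the others being *Pycr1*, *Aars*, *Nars*, and *Edem1*. The same 3 mice carried the high S3 markers given above, and the part of sex, of S3 content, and of the mitochondrial share in this ordering was not tested.

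**Figure D3:**
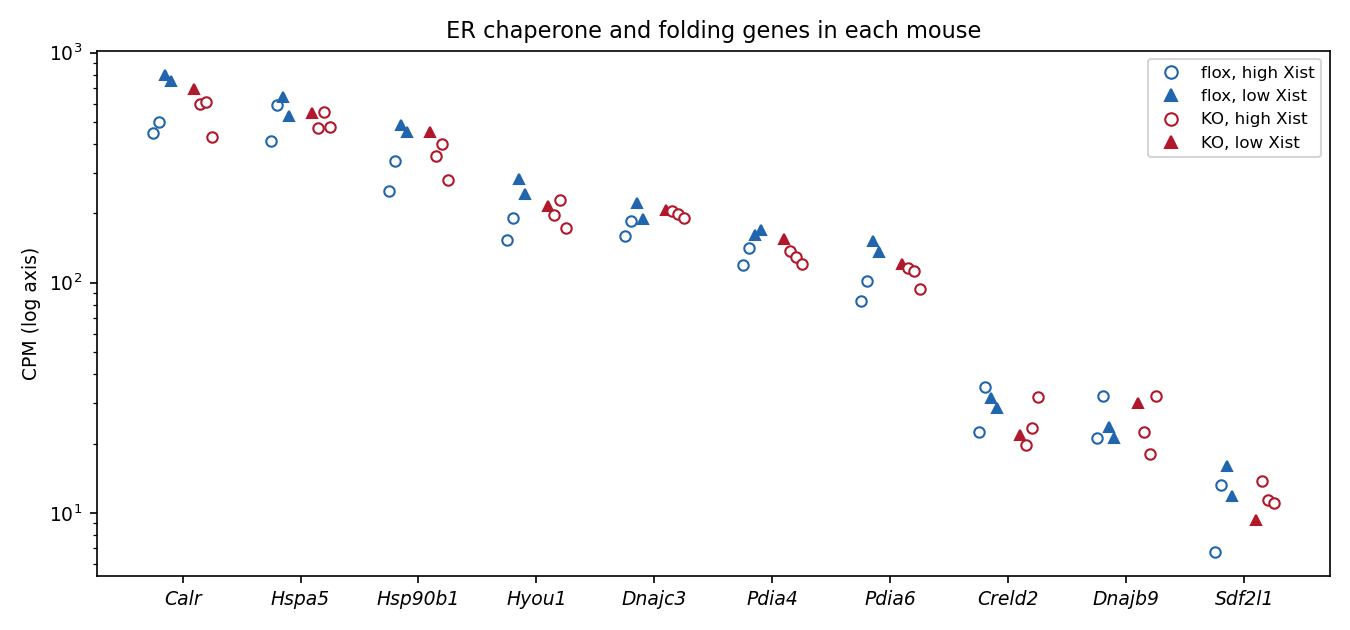
CPM on a log axis of the 10 ER chaperone and folding genes in each mouse; blue marks are fl/fl and red marks ΔTAM mice, filled triangles are the mice with low *Xist* and open circles those with high *Xist*. The genotypes overlap in all 10 genes, and in *Calr*, *Hsp90b1*, *Pdia4*, *Pdia6*, and *Dnajc3* the triangles lie above the circles of the same color.

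The 2 genes of ER-associated degradation, which sends misfolded protein to the proteasome, were not called. *Herpud1* (chromosome 8, 94386438 to 94395377, plus strand), a scaffold of the ubiquitin ligase complex, was at 185.6, 243.4, 209.4, and 368.3 CPM in ΔTAM and 403.3, 436.1, 319.8, and 222.0 CPM in fl/fl mice. ΔTAM mice 2 and 4 lay in the fl/fl range and fl/fl mice 3 and 4 in the ΔTAM range, and the fitted difference was -0.46 on the log2 scale (standard error 0.267, adjusted *P* = 0.504). *Edem1*, which marks misfolded glycoproteins, was at 80.1 to 118 against 75.2 to 113.9 CPM. Within each genotype *Herpud1* was lowest in the mouse with the largest mitochondrial share, ΔTAM mouse 1 (32.3%) and fl/fl mouse 4 (25.5%), although over all 8 mice ΔTAM mouse 3 lay below fl/fl mouse 4. Without both of these libraries its fitted log2 difference was -0.50 (adjusted *P* = 0.448), and with single mice left out it was between -0.70 (without ΔTAM mouse 4) and -0.32 (without fl/fl mouse 2), not called in any of these fits.

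**Figure D4:**
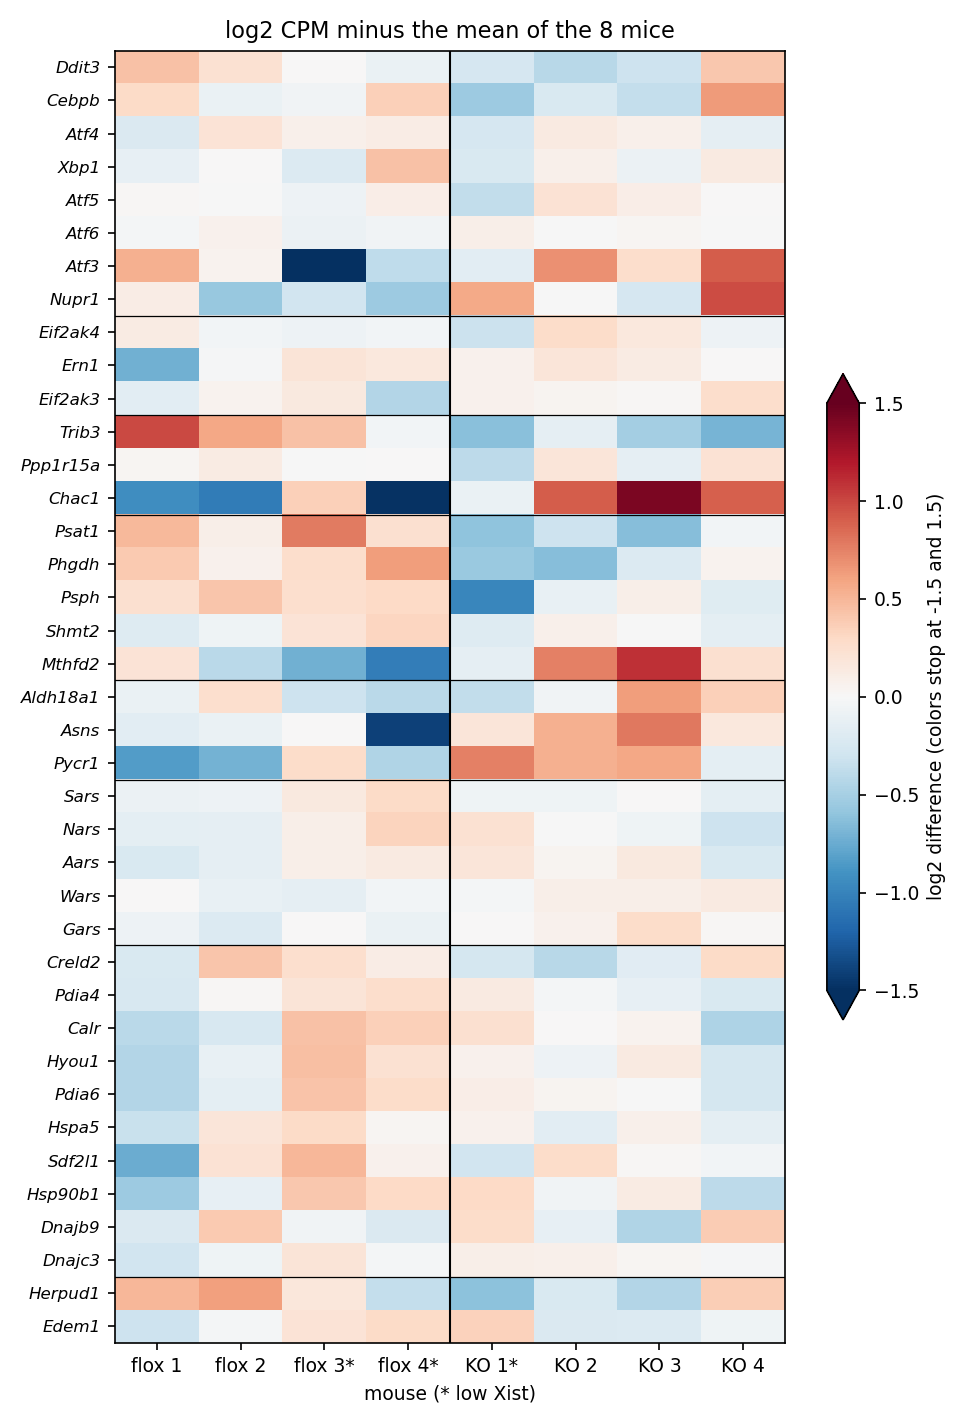
Log2 CPM of the 39 tested genes in each mouse, minus the mean of the 8 mice (red higher, blue lower, colors stop at -1.5 and 1.5), with genes ordered by role and an asterisk on the 3 mice with low *Xist*. The serine synthesis genes and *Trib3* split by genotype, and most chaperones are low in fl/fl mouse 1 and ΔTAM mouse 4 and high in fl/fl mouse 3.

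Further genes of the same responses were compared as lists. In 8 of them, with 158 genes (157 tested), 0 were called higher and 3 lower, or 1.91% beside 2.16% of all tested genes. Of 24 other ATF4 targets, 23 were tested and 2 were called lower, *Slc3a2*, the heavy chain of amino acid exchangers, and *Gpt2*, mitochondrial alanine transaminase. *Gpt2* was at 13.4, 21.6, 22.8, and 23.8 CPM in ΔTAM and 65.7, 68.1, 34.8, and 55.8 CPM in fl/fl mice, without overlap, with a log2 fold change of -1.46 (adjusted *P* = 0.0194). That call was lost without ΔTAM mouse 2 or 3 or fl/fl mouse 1, 2, or 4, with adjusted *P* values up to 0.0709 and log2 fold changes between -1.63 and -1.30 over the 8 fits, and it was lost with the filter of at least 1 count in any mouse (0.0843). *Slc3a2* had a log2 fold change of -1.26 (standard error 0.129) and was called in all 8 fits that left out a mouse. The median log2 fold change of this list was 0.00, as over all genes, while its summed level did not overlap, at 992 to 1119 CPM in ΔTAM and 1141 to 1450 CPM in fl/fl mice. *Slc3a2* (60.9 to 93.3 CPM in ΔTAM and 182 to 217 CPM in fl/fl mice) and *Gpt2* are part of that sum. The gap in *Slc3a2* alone was wider than that between the sums. The lack of overlap therefore need not hold for the other genes of the list.

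Of 47 further genes of ER folding, translocation, and degradation, 1 was called lower and the median log2 fold change was 0.00. It was *Creb3l3*, a transcription factor held in the ER membrane and cut free under stress, known mostly from liver and gut. It had 0, 2, 0, and 4 counts in ΔTAM and 25, 25, 24, and 21 counts in fl/fl mice, so the ΔTAM mice were at or near 0, and its adjusted *P* of 0.00656 stayed under the threshold in all 8 fits without a mouse. Its fitted log2 fold change of -3.81 depends on the small count added in the fit. Of 9 hepatocyte markers, 7 were tested, 4 had an unadjusted *P* under 0.05 (14% of all tested genes did), and 1, *Ttr*, was called lower (1.26 ± 1.27 against 41.4 ± 17.7 CPM, SD, n = 4 each). Their sum overlapped between genotypes and was highest in the 3 mice with low *Xist*, at 1199 to 1837 CPM against 667 to 797 CPM in the others. The part of these markers in the *Creb3l3* difference was not tested.

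No gene was called in the other 6 lists: 15 cytosolic tRNA synthetases, 17 mitochondrial tRNA synthetases, 15 genes of the eIF2 kinases and eIF2 cycle, 10 mitochondrial chaperones and proteases, 13 cytosolic heat shock genes, and 17 immediate early genes. At an unadjusted *P* under 0.05 there were 2, 0, 1, 1, 4, and 3 of them in that order by edgeR's quasi-likelihood test, beside 14% of all tested genes. Their median log2 fold changes were -0.04, 0.02, 0.01, -0.11, -0.19, and 0.15. The p53 target genes, which share stress inputs with these pathways, had 4 of 16 called higher and 1 lower (over all genes 0.586% were called higher and 1.58% lower). Of these 16, 11 had an unadjusted *P* under 0.05, against 14% of all tested genes. Their summed levels were 547 to 694 CPM in ΔTAM and 368 to 424 CPM in fl/fl mice, without overlap. Markers of macrophages (227 to 300.0 against 211 to 247 CPM in sum) and of plasma and B cells (24.6 to 41.4 against 19.7 to 35.3 CPM), the latter secretory cells in which chaperones are abundant, overlapped between genotypes.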

How the data were processed

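The authors deposited a table of raw counts of reads per gene for 4 *c-Maf* ΔTAM and 4 *c-Maf* fl/fl whole kidneys, with a gene length column in bases. Per the file headers, featureCounts 2.0.1 counted exons of Ensembl release 102 on GRCm38, each read of a pair separately, without strand and without reads on exons of more than 1 gene. The submitters' processing notes name Subread 2.0.2 and edgeR 3.36.0, and the aligner is not given in the sources used here. The study's own route from reads (a commercial workbench) was not repeated.

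From these counts, edgeR 4.0.16 (R 4.3.3, limma 3.58.1) kept 20149 of 55367 genes by filterByExpr, scaled libraries by TMM, and compared genotypes over all tested genes with the robust quasi-likelihood test, no covariate, and Benjamini-Hochberg adjustment at 0.05. Log2 fold changes are ΔTAM relative to fl/fl, with edgeR's small default prior count in the fit. A prior count of 2 entered only the log2 CPM of the quantile normalization, the *Xist* covariate, and the check of replicate pairs. All pairs of libraries of one genotype differed by more than sampling noise. Nothing says that mice came from separate litters or days, so *P* values measure the spread between these mice. On simulated counts with known changes, the test recovered 26% of genes changed 1.5-fold, 68% changed 2-fold, and 96% changed 4-fold (50 genes of each size). The changed genes were drawn above a minimum mean count, so these shares do not cover members with the fewest counts, such as *Trib3*. Motifs were searched in the 250 bases before RefSeq starts of GRCm38.p6, and overlaps and shared 36-base sequences were taken from the Ensembl-based coordinates and from GENCODE M21 transcripts. Protein sequences were not used here.

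The alternatives were RLE, upper-quartile, and quantile scaling, DESeq2 1.42.0, edgeR's exact test (at least 5 counts in total), filters of at least 1 count in any mouse or 10 in every one, a block for the replicate number, *Xist* as a covariate, the mice with high *Xist*, a fit without mitochondrial and ribosomal RNA genes, a threshold of 0.01, and each mouse left out. Leaving out ΔTAM mouse 1 and fl/fl mouse 4 together was added after the data were seen. Values in every mouse are given for members that were called, did not overlap, had the smallest *P* of their role, were among the 3 highest per kb, or were among the 3 largest changes. The members, lists, and markers were chosen with earlier results of these data known. Markers other than those given in the text, of the thick limb, distal tubule, collecting duct, podocytes, and fibroblasts, held 0 called genes, and 1 was called lower in each of the endothelial, hepatocyte, and tubular injury lists (*Kdr*, *Ttr*, and *Krt8*). Python 3.11.15 and matplotlib 3.10.9 drew the figures.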

Additional observations from a re-analysis of the deposited data

Results flagged for a closer look

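Of 80 groups of 4 mice (40 genes in each genotype), 1 held a mouse set far from the other 3, where chance gives about 4. *Ddit3*, the gene of CHOP, was at 12.6 CPM in ΔTAM mouse 4 against 7.14 to 7.99 CPM in ΔTAM mice 1 to 3, and that gap was 0.843 of the whole range of the group. With all mice its log2 fold change was -0.27 (adjusted *P* = 0.598 by edgeR's quasi-likelihood test), and without that mouse it was -0.48.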

How the results depend on the processing

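Most values kept their direction and their side of the threshold. Where the main setting called 1 of the 39 members, there were 2 in DESeq2 and with at least 1 count in any mouse (*Chac1* and *Psat1*), 3 with *Xist* as a covariate (*Psat1*, *Psph*, and *Mthfd2*), 1 in the mice with high *Xist* (*Chac1*), and 0 at a threshold of 0.01, without ΔTAM mouse 1 and fl/fl mouse 4, and in 5 of the 8 fits that left out 1 mouse (range 0 to 1). Over all genes, with 436 called, there were 886 in DESeq2, 1391 with *Xist*, 789 in the mice with high *Xist*, 180 at a threshold of 0.01, and 239 to 452 with 1 mouse left out. Of the other pathway genes, with 8 called, these were 18, 25, 15, 5, and 5 to 10. The members' median of -0.07 became 0.022 under quantile normalization, 0.10 in the mice with high *Xist*, and -0.13 to 0.032 with 1 mouse left out (0.032 without fl/fl mouse 3). *Calr* turned to 0.054 under quantile normalization, 0.038 with *Xist*, 0.20 in the mice with high *Xist*, and -0.23 to 0.041 with 1 mouse left out, and *Hspa5* turned to 0.067 under quantile normalization. *Chac1* and *Trib3* could not be tested under the filter of 10 counts in each library. The causes were not tested.

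The replicate numbers do not pair the mice, since deviations of same-numbered mice correlated at -0.373, 0.152, -0.11, and -0.331. With the replicate block, 0 members, 129 genes in all, and 3 other pathway genes were called, and the adjusted *P* was 0.0516 for *Maf*, 0.0830 for *Creb3l3*, 0.109 for *Gpt2*, and 0.223 for *Psat1*. At 4 mice a group, changes of 1.5-fold were mostly missed on simulated counts, so the uncalled members are not shown to be unchanged.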
